A study of Zea mays with 8 samples.

Results

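In leaves of young maize, 101 well expressed genes stood at nearly the same deposited level whether or not the leaf had been given SLB. They were picked from 44135 gene identifiers by 3 conditions on deposited FPKM, a measure that divides the fragments of a gene by transcript length and by the mapped fragments of its library. The mean of the 4 control libraries and the mean of the 4 SLB libraries each had to lie from 100 to under 500 FPKM, and the SLB mean divided by the control mean had to lie from 0.8 to its inverse, 1/0.8. The level condition alone was met by 315 genes, of which 102 had a lower ratio and 112 a higher one. Because the ratio chose the genes, their likeness between the groups is a description and was given no test.

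Both groups were maize (Zea mays) of the cultivar Golden Queen, 14 d old, and in both the emerging leaf 4 was taken 24 h after treatment. One group received SLB spores in suspension. SLB is the southern leaf blight fungus Cochliobolus heterostrophus in the published study. The other received 0.1% Tween 20 in water. Each group held 4 libraries of bulk messenger RNA, so fewer cells of a type and less RNA per cell cannot be told apart, and whether separate plants were used for each is not in the labels. The reference gene table matched 0 of the 44135 identifiers. The 101 genes are therefore given without names, products or positions, and the leaf tissue could not be checked against its marker genes.

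Genes that hold their level across treatments are used in plant work as internal references, against which other transcripts are measured by quantitative PCR. Genes of basic cell upkeep, such as those for translation, protein turnover and the cytoskeleton, are the usual candidates. RNA sequencing measures each transcript relative to the rest of its library, so a gene can be called steady only relative to a stated scale. Median-ratio scaling makes that scale explicit: each gene is divided by its geometric mean over all libraries, the median of these ratios in a library is its factor, and the library is divided by it.

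The 101 genes were spread evenly over the permitted ratios and lay mostly in the lower part of the permitted levels. Their mean over the 8 libraries ran from 108 to 453 FPKM with a median of 169 FPKM. Between 100 and 150 FPKM there were 40 genes, between 150 and 200 FPKM 22, between 200 and 300 FPKM 30, and between 300 and 500 FPKM 9. The ratio of SLB mean to control mean had a median of 1.00, with 52 genes above 1 and 49 below. There were 23 genes with a ratio from 0.8 to 0.9, 26 from 0.9 to 1, 22 from 1 to 1/0.9 and 30 above that.

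**Figure D1:**
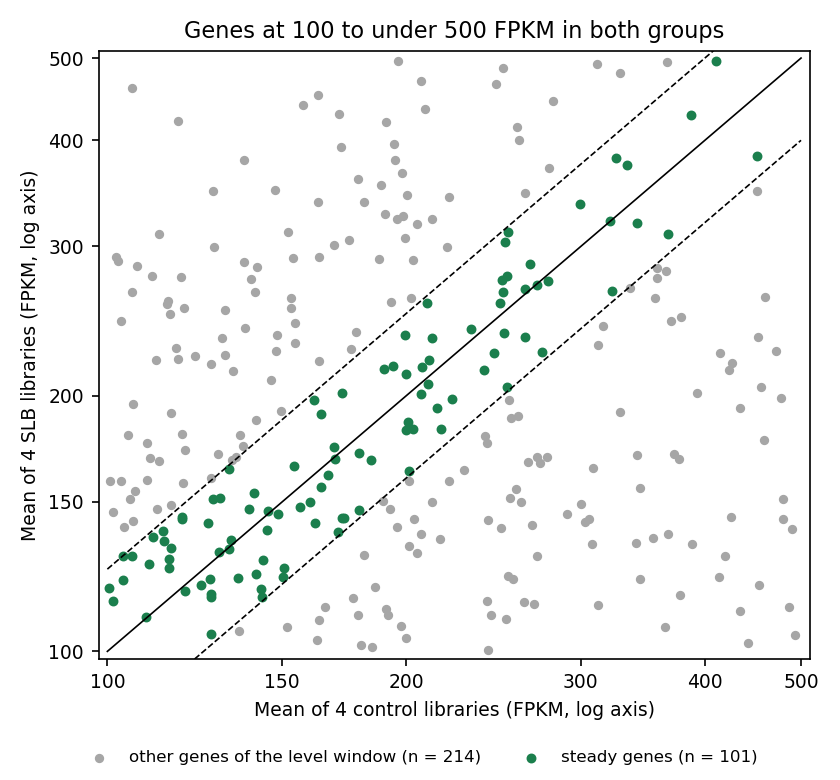
Mean FPKM of 4 SLB libraries against mean FPKM of 4 control libraries, both on log axes, for the 315 genes that lie from 100 to under 500 FPKM in both groups. The solid line marks equal means and the dashed lines the ratios 0.8 and 1/0.8; the 101 steady genes fill the band between them, and 214 genes lie outside it with no gap at the bounds.

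No gap in the data marked the bounds of the group. The ratios just inside the lower bound were 0.809 and 0.810, and those just outside it were 0.796 and 0.792. At the upper bound the nearest ratios inside were 1.248 and 1.235, and those outside were 1.2570 and 1.2574. Among genes of a permitted ratio, the lower of the group means just inside the level bound was 100.4 and 101 FPKM, against 97.6 and 97.5 FPKM just outside. At the top, the higher of the group means was 496 and 452 FPKM inside, and 516 and 564 FPKM outside.

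The least spread gene, Zm00001d025801, differed little among all 8 libraries. It was at 143, 138, 147 and 158 FPKM in SLB replicates 1 to 4 and at 139, 152, 136 and 153 FPKM in control replicates 1 to 4. The highest library was SLB replicate 4 and the lowest control replicate 3, and the groups overlapped. Its means were 146 ± 8.29 FPKM after SLB and 145 ± 8.89 FPKM in controls (SD, n = 4 each), and the highest library was 1.16 times the lowest.

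The second least spread gene was Zm00001d001896. It was at 228, 195, 201 and 240 FPKM in SLB replicates 1 to 4 and at 198, 202, 216 and 213 FPKM in control replicates 1 to 4. All 4 controls fell inside the range of the SLB libraries. Its means were 216 ± 21.5 FPKM after SLB and 207 ± 8.53 FPKM in controls (SD, n = 4 each).

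The rule fixed only group means, and genes with equal means could still vary widely between replicates. Zm00001d024281 had the largest spread of the 101 genes, with 107, 308, 79.5 and 157 FPKM in SLB replicates 1 to 4 and 208, 171, 180 and 246 FPKM in control replicates 1 to 4. SLB replicate 2 was above every control, and the other SLB libraries were below every control. Its means were 163 ± 102 FPKM after SLB and 201 ± 33.7 FPKM in controls (SD, n = 4 each), a ratio of 0.810, which is next to the lower bound.

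Zm00001d024314, the second most spread gene, had the same kind of profile. It was at 103, 356, 107 and 119 FPKM in SLB replicates 1 to 4 and at 216, 193, 131 and 177 FPKM in control replicates 1 to 4. Again SLB replicate 2 was above every control and the other SLB libraries below every control. Its means were 171 ± 124 FPKM after SLB and 179 ± 35.9 FPKM in controls (SD, n = 4 each). Its ratio of 0.957 became 0.613 without SLB replicate 2, and the ratio of Zm00001d024281 became 0.569, both under the bound of 0.8. The numbers in the identifiers of these genes are 33 apart. No neighbouring pair among the 101 genes was within 10 numbers.

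**Figure D2:**
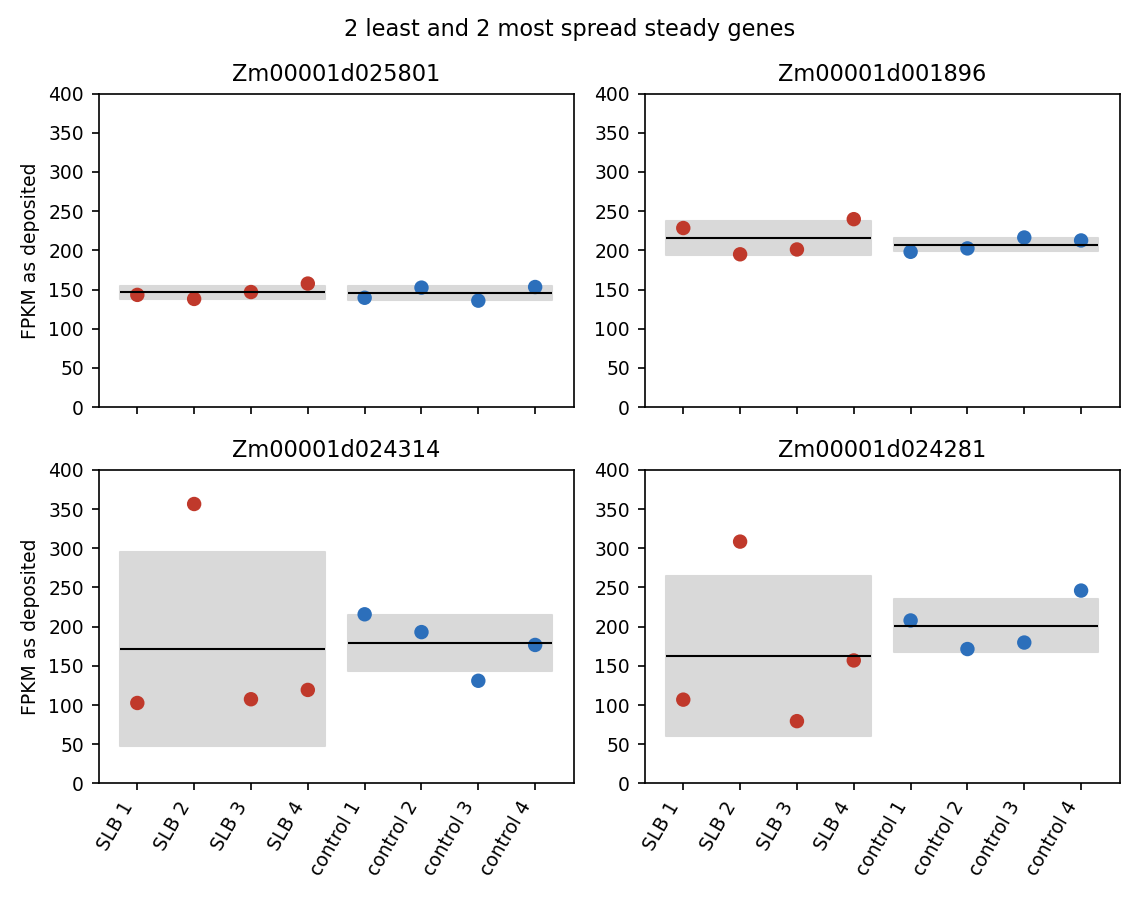
FPKM as deposited in each of the 8 libraries for the 2 least spread steady genes (top) and the 2 most spread (bottom), with SLB libraries in red and controls in blue. Lines mark group means and grey bands 1 SD over 4 libraries; the bottom genes reach 356 and 308 FPKM in SLB replicate 2, while their other SLB libraries lie between 79.5 and 157 FPKM.

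Across all 101 genes, single values ran from 68.4 to 561 FPKM, and none was listed at 0. The gene with the highest mean was at 561, 541, 424 and 458 FPKM in SLB replicates 1 to 4 and at 403, 466, 314 and 459 FPKM in the controls. The gene with the lowest mean was at 151, 89.9, 131 and 87.4 FPKM in SLB replicates 1 to 4 and at 89.4, 111, 88.4 and 116 FPKM in the controls. In both genes the groups overlapped. The highest of the 8 libraries was under 1.5 times the lowest in 39 genes, 1.5 to under 2 times in 44 genes and at least 2 times in 18 genes, with a median of 1.62.

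Few of the 101 genes separated the groups, which the rule on the ratio makes likely. In limma on log2(FPKM + 1), with Benjamini-Hochberg adjustment over 19407 tested genes, 2 were called higher and 2 lower in SLB libraries at an adjusted p of 0.05, where 80.6% of all tested genes were called in either direction, 56% higher and 24.6% lower. All 101 genes passed the filter on low values. The 4 SLB libraries lay wholly above the controls in 2 genes and wholly below in 5, and overlapped them in 94. Among all tested genes SLB libraries lay wholly above in 53.3% and wholly below in 22.2%. The rule used this contrast, so nothing is read from these counts. With the replicate number as a block, 0 of the 101 were called in either direction, where 10828 of the 19407 tested genes were higher and 4789 lower. Nothing is read from that count either.

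Spread between replicates was not part of the rule. On the log2(FPKM + 1) scale the median SD of the 101 genes was 0.16 over the 4 SLB libraries (quartiles 0.10 and 0.24) and 0.24 over the 4 controls (quartiles 0.16 and 0.34). The SD was higher in controls for 69 genes, or 68.3%. Among all tested genes it was higher in controls for 65.4%, with medians of 0.20 and 0.26. After quantile normalization, which gives every library the same distribution and so removes differences between whole libraries, it was higher in controls for 48 of the 101 genes (47.5%). Among all tested genes this share was then 53.6%. With median-ratio scaling the shares were 82.2% of the 101 genes and 68.5% of all tested genes. With every library set to the same summed FPKM they were 73.3% and 68.2%. How often the SD was higher in controls thus depended on the scale. No test was made of this difference between the groups.

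The other genes of the same level window had spreads close to these. Those with a ratio under 0.8 had a median SD of 0.20 in SLB libraries and 0.26 in controls. Those with a ratio over 1/0.8 had 0.13 and 0.23. The median SD of the 101 genes lay between these values in each group. Across the level classes of 100 to 150, 150 to 200, 200 to 300 and 300 to 500 FPKM, the median SD of the 101 genes in controls was 0.26, 0.20, 0.23 and 0.26, with no order by level. In SLB libraries it was 0.14, 0.15, 0.18 and 0.15, rising over the lower classes and lower again in the highest, which held 9 genes. The SD in SLB libraries and that in controls correlated at a Spearman rho of 0.28 across the 101 genes, which share the same libraries and are not independent.

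**Figure D3:**
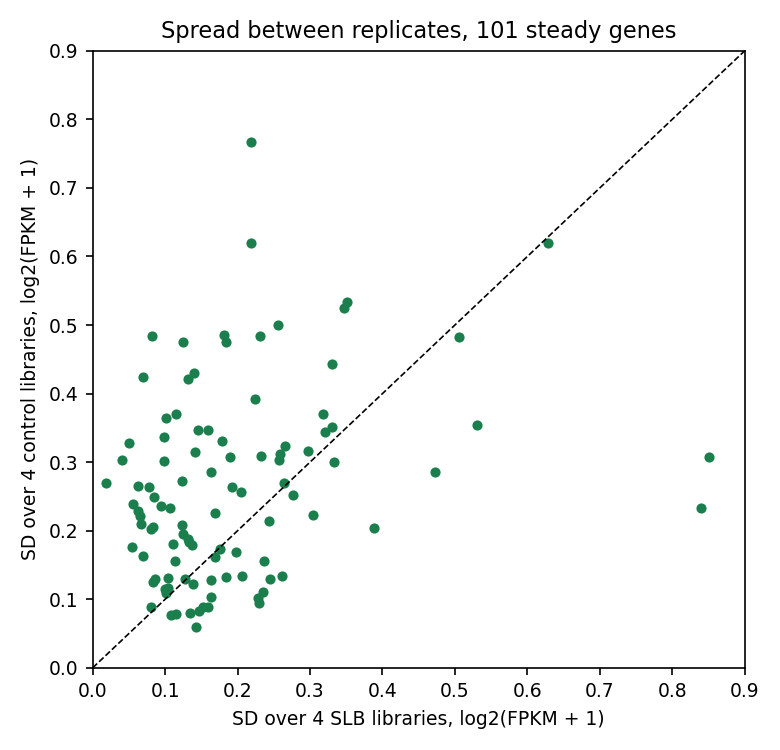
SD of log2(FPKM + 1) over the 4 control libraries against that over the 4 SLB libraries, 1 point for each of the 101 steady genes, with a dashed line at equal SD. For 69 genes the point lies above the line; the 2 points farthest right, with SLB SDs of 0.84 and 0.85, are Zm00001d024281 and Zm00001d024314.

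With FPKM as deposited, control replicate 3 held the lowest values most often. It was the lowest of all 8 libraries in 34 of the 101 genes, against 6 to 13 for each other library, and the lowest control in 47 genes. This order depended on the scale: the median level of the 101 genes in control replicate 3 was the lowest of the controls as deposited and after median-ratio scaling, and the highest after quantile normalization (158 FPKM, against 149, 151 and 154 in control replicates 1, 2 and 4) and with every library set to the same summed FPKM (139 FPKM, against 109, 123 and 123). The median distance of the 101 genes from their own mean was -0.10 in control replicate 3 on the log2 scale, 0.10 in control replicates 1 and 4, and -0.01 in control replicate 2. In SLB replicates 1 to 4 it was 0.01, 0.02, 0.00 and 0.04. Without control replicate 3, the highest control was under 1.5 times the lowest in 79 genes, against 56 with it, though a range over 3 libraries is narrower by construction. The range over the 4 SLB libraries was under 1.5 times in 82 genes.

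Wide ranges did not come from 1 library alone. In 6 genes the highest SLB library was at least 2 times the lowest, and the highest was replicate 1 in 3 of them, replicate 2 in 2 and replicate 4 in 1. In 12 genes the highest control was at least 2 times the lowest, and the lowest was control replicate 3 in 6 of them and replicate 4 in 4. Within the SLB group, replicates 1 and 3 deviated from the gene means together, with r = 0.54 across the 101 genes. Replicates 2 and 3 were opposed at r = -0.73, and replicates 1 and 4 at r = -0.72. Over all tested genes the same pairs, in this order, had r = -0.05, -0.47 and -0.51. The values for the 101 genes include the 2 most spread genes, and r without them was not computed. Deviations from a mean of 4 libraries sum to 0, which by itself gives negative values.

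On the deposited scale, the steady level held only in part when choosing and reading used separate libraries. Applied to replicates 1 and 2 of both groups, the rule chose 96 genes, and in replicates 3 and 4 the ratio of 65 of them (67.7%) was again from 0.8 to 1/0.8. Their ratio there had a median of 1.05 and ran from 0.555 to 1.79. The other 211 genes of the level window had a ratio outside the bounds in replicates 1 and 2. Of these, 29 (13.7%) had a ratio in those bounds in replicates 3 and 4.

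The reverse choice gave similar shares. Replicates 3 and 4 chose 103 genes, of which 67 (65.0%) stayed within the bounds in replicates 1 and 2, against 28 of 236 other genes of the window (11.9%). Their median ratio was 0.985, with a range from 0.439 to 1.69. With 2 libraries against 2, no permutation test can pass a threshold of 0.05, and none was made. Choosing and reading replicates share the deposited scale, so these shares describe only how ratios repeat between replicates.

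**Figure D4:**
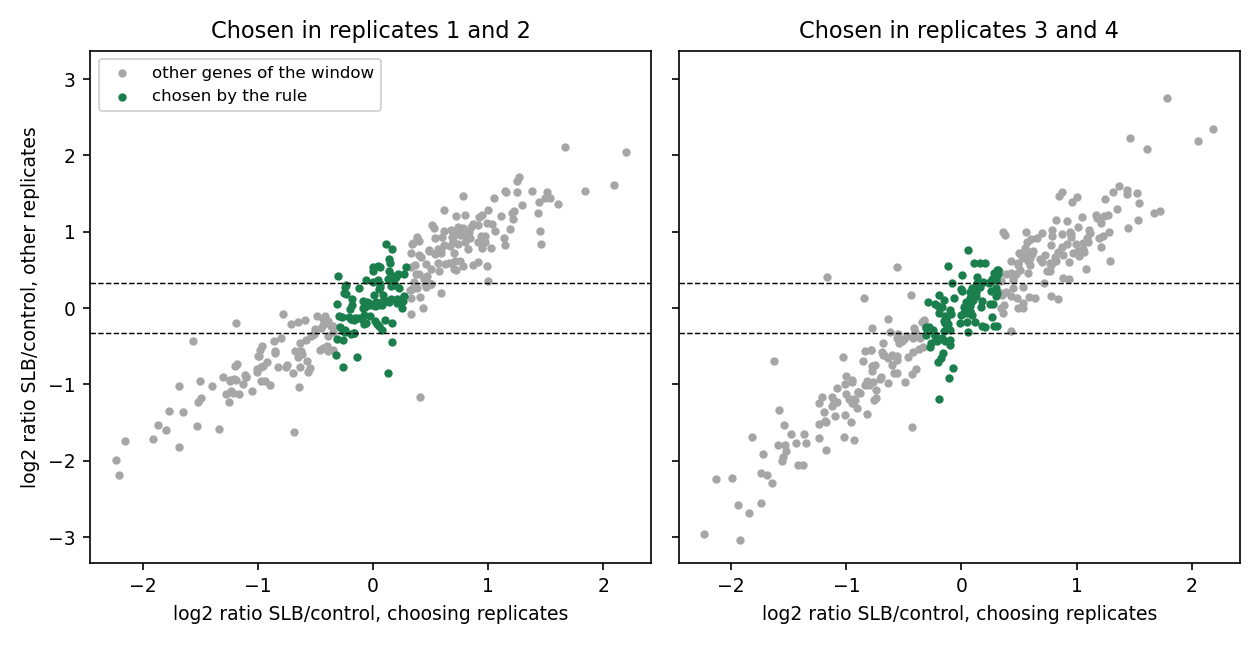
Log2 of the ratio of SLB mean to control mean in the replicates that were not used for choosing, against the same in the choosing replicates, for genes at 100 to under 500 FPKM in both groups of the choosing replicates. Dashed lines mark ratios of 0.8 and 1/0.8; of the chosen genes (green), 65 of 96 (left) and 67 of 103 (right) lie between them, and other genes of the window are grey.

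The steadiness depended on the scale of the libraries. The summed FPKM of the 101 genes was 19624, 19559, 18908 and 19830 in SLB replicates 1 to 4 and 20483, 18993, 17454 and 20317 in control replicates 1 to 4. The groups overlapped in this sum, which the rule holds near equal, but not in the total of the whole table. Summed over all genes, FPKM ran from 706734 to 755209 after SLB and from 1415306 to 2118483 in controls. The same genes thus made up 2.67% ± 0.0977 (SD, n = 4) of summed FPKM after SLB and 1.10% ± 0.109 (SD, n = 4) in controls.

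Ranks within a library, which do not change when a library is multiplied by a factor, also differed. The median rank of the 101 genes among all 44135 identifiers, counted from the most abundant, was 701, 624, 714 and 658 in SLB replicates 1 to 4. In control replicates 1 to 4 it was 889, 876, 839 and 865. All SLB libraries placed these genes higher in the order than all controls did. The rule held their FPKM near equal in both groups, so the rank restates how many other genes lay above that level in each library. It is not separate support, and ranks of the other genes of the level window were not computed.

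Median-ratio factors, taken over 17496 tested genes above 0 in every library, were 1.29, 1.32, 1.31 and 1.41 in SLB replicates 1 to 4. In control replicates 1 to 4 they were 0.687, 0.740, 0.883 and 0.743. Factors taken over the 101 genes alone were 1.01, 1.01, 1.00 and 1.03 in SLB libraries and 1.07, 0.991, 0.933 and 1.07 in controls. Control replicate 3 thus had the highest factor of the controls over the tested genes and the lowest over the 101 genes.

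Divided by the median-ratio factors, the 101 genes were lower after SLB. Their median level became 130, 127, 122 and 120 FPKM in SLB replicates 1 to 4 and 270, 231, 178 and 241 FPKM in control replicates 1 to 4. Every SLB library was then below every control in this median. The ratio of SLB mean to control mean ran from 0.456 to 0.717 with a median of 0.566, so 0 of the 101 genes stayed within 0.8 to 1/0.8 and all 101 lay below it. The factors averaged 1.33 in SLB libraries and 0.763 in controls. That gap is wider than the ratio bounds of the rule, so these counts were nearly fixed in advance. Their median log2 difference, SLB minus control, moved from 0.02 as deposited to -0.78, while that of all tested genes moved from 0.69 to 0.04. In limma 85 of the 101 were then lower and 0 higher, where 38% of all tested genes were lower and 40.4% higher; as the rule used this contrast, such counts only describe what the scaling does.

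The 2 least spread genes lost the overlap of their groups under this scaling, and the 2 most spread genes kept it. Over all 101 genes, SLB libraries then lay wholly below the controls in 63, wholly above in 0 and overlapped them in 38. The same count was not made over all tested genes under this scaling, and the rule used this contrast, so nothing is read from it. Zm00001d025801 became 111, 104, 112 and 112 FPKM in SLB replicates 1 to 4 and 203, 206, 154 and 206 FPKM in control replicates 1 to 4, and its groups no longer overlapped. Its SD of log2(FPKM + 1) over the 8 libraries rose from 0.08 to 0.45, and its place in the order of spread went from 1 to 31. The SD within its SLB group went from 0.08 to 0.05 and that within its controls from 0.09 to 0.21. For Zm00001d001896 the SLB values became 177, 147, 153 and 170 FPKM and the control values 288, 273, 245 and 286 FPKM, again without overlap. For Zm00001d024314 they became 79.7, 269, 82.0 and 84.5 FPKM in SLB replicates 1 to 4 and 314, 261, 148 and 238 FPKM in control replicates 1 to 4. For Zm00001d024281 they became 83.0, 233, 60.6 and 111 FPKM in SLB libraries and 303, 232, 203 and 331 FPKM in controls. In both of these genes SLB replicate 2 moved from above every control into their range, and they remained the second most and the most spread of the 101.

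Median-ratio scaling widened the spread among the controls, and quantile normalization narrowed it. The median SD of the 101 genes went from 0.24 to 0.31 in controls and from 0.16 to 0.15 in SLB libraries with median-ratio scaling. After quantile normalization it was 0.20 in controls and 0.19 in SLB libraries. With equal totals, meaning the same summed FPKM in each library, it was 0.25 and 0.17. Over all tested genes the median SD in controls was 0.26 as deposited, 0.21 after quantile normalization, 0.25 with median-ratio scaling and 0.34 with equal totals. The highest of the 8 libraries was at least 2 times the lowest in 87 of the 101 genes after median-ratio scaling, against 18 as deposited. This range spans both groups. It therefore includes the difference between them, which the rule kept small as deposited, and does not measure replicate spread alone.

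Other scales moved the same genes the other way. Quantile normalization put their median log2 difference at 0.44, with 33 ratios still from 0.8 to 1/0.8 and 68 above. Setting all libraries to equal summed FPKM put it at 1.28, with ratios from 1.93 to 3.03 in all 101 genes. Its factors averaged 0.583 in SLB libraries and 1.42 in controls, so no ratio from 0.8 to 1/0.8 could stay there. In limma 56 were then higher and 0 lower after quantile normalization, where 42.2% of tested genes were higher and 35.4% lower. With equal totals 100 were higher and 0 lower, where 74.5% of tested genes were higher and 12.1% lower. The direction of the 101 genes therefore differed between rescalings, and no spiked standard or count was used here that would choose between them.

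**Figure D5:**
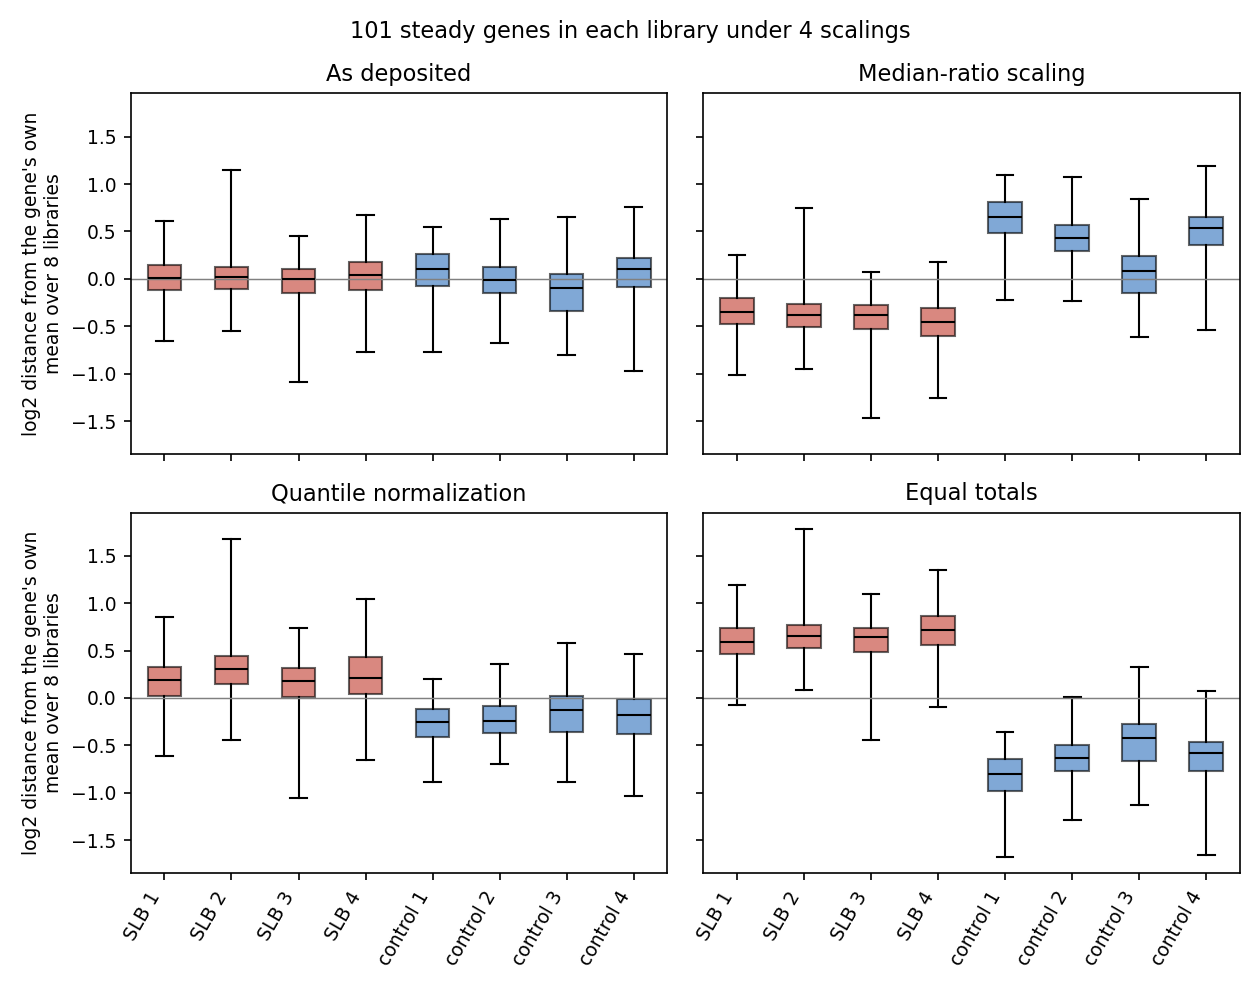
Log2 distance of each of the 101 steady genes from its own mean over 8 libraries, by library, as deposited and under 3 rescalings, with SLB libraries in red and controls in blue. Boxes span the quartiles, the line is the median and whiskers reach the lowest and highest gene; SLB boxes lie below controls after median-ratio scaling and above them after quantile normalization and with equal totals.

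The same rule applied to rescaled values chose other genes. On median-ratio scaled values 110 genes met it and on equal totals 93, and 0 of the 101 were in either set. Under both scalings the factors of the groups differed by more than the width of the ratio bounds. An overlap of 0 was thus nearly fixed in advance, and nothing is read from it. The deposited ratios of those 110 genes ran from 1.42 to 2.20, and those of the 93 from 0.336 to 0.520, which restates the same factors. After quantile normalization 83 genes met the rule, of which 33 were among the 101, so the shared genes made up 33 of 83 and 33 of 101.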

How the data were processed

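Messenger RNA of 8 maize leaf libraries, 4 per group, was sequenced, and the authors deposited 1 table of FPKM values with a column for each. The submitters' processing notes name Trimmomatic 0.32 for trimming and B73 RefGen_v4 as the build. Aligner, quantifier and any further scaling are not given in the sources here. The depth is unknown, so no interval for counting error can be given. The reference gene table (Zm-B73-REFERENCE-NAM-5.0, 49888 entries) matched 0 identifiers, so the planned gene lists had no members and identifiers are printed for the 2 least and the 2 most spread genes only. Columns without a sample numbered 0.

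The 19407 genes that reached 1 FPKM in 4 or more libraries were tested with limma 3.58.1 in R 4.3.3 on log2(FPKM + 1), with group as the only term, a variance trend, and Benjamini-Hochberg adjustment. Differences on this scale understate changes of low genes. Limma was tried on simulated data for SLB against control, with 200 of 19407 genes changed. It recovered 58% of 2-fold and 92% of 4-fold changes. In the deposited data 80.6% of tested genes were called, so these shares do not give the sensitivity of the fit used here. Means, SDs and scalings used Python 3.11.15, pandas 2.3.3 and numpy 2.4.6. The steady genes have both group means from 100 to under 500 FPKM and a ratio from 0.8 to 1.25. These genes and the lists were chosen with earlier results of these data known. Replicate spread may be technical, since the labels name no separate plants, and p-values cover only that spread. Alternatives were other pseudocounts, filters, scalings, variance models, ratio windows, group medians, the replicate block and leaving out each library.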

Additional observations from a re-analysis of the deposited data

Results flagged for a closer look

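Of 26 groups of 4 values checked, for library measures and the 4 identifiers named, 1 held a library far from the other 3: Zm00001d024314 was at 356 FPKM in SLB replicate 2, while the other SLB libraries were at 103, 107 and 119 FPKM. Chance gives about 1 in 20 such groups, and this gene was named for its large spread. Over all 101 genes, 1 library stood apart in the SLB group of 5 genes and in the control group of 4 genes.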

How the results depend on the processing

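Of 146 values of 10 results under alternatives, 111 stayed close to the reported one, which for counts means within 1.5 times. Over all tested genes, 10863 were called higher and 4773 lower as deposited; median-ratio scaling gave 7369 lower and equal totals 2340 lower, with 7844 and 14463 higher. Both scalings divided the SLB libraries and the controls by factors of different size. What moved these counts was not tested. Of the 101 genes, 2 were called higher and 2 lower as deposited; the pairs were 0 and 85 with median-ratio scaling, 56 and 0 with quantile normalization, 100 and 0 with equal totals, 1 and 2 with factors from the 101 genes or without a variance trend, 2 and 5 with no filter, and 0 and 0 with the replicate block. Leaving out 1 library gave 0 to 4 higher and 0 to 3 lower; the higher calls were 0 without SLB replicate 1, 2 or 3, 4 without control replicate 1 and 1 without control replicate 2 or 4, and the lower calls were 1 without SLB replicate 1 or 3 or control replicate 1, and 0 without control replicate 2. Over all tested genes, quantile normalization gave 8198 higher and 6874 lower, and no filter, over more genes, 13414 and 5200. Factors from the 101 genes gave 10752 and 4719, no variance trend 10859 and 4760, and the replicate block 10828 and 4789. Leaving out 1 library gave 10541 to 11075 higher and 4534 to 4814 lower. As the rule used this contrast, nothing is read from the counts for the 101 genes. The cause of the moves between settings was not tested.

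The median log2 difference of the 101 genes was 0.02, and -0.78, 0.44 and 1.28 with median-ratio scaling, quantile normalization and equal totals; their median SD over 8 libraries was 0.22 as deposited, and 0.50, 0.35 and 0.74. That SD spans both groups and so includes the difference between them. A ratio window from 0.9 to 1/0.9 left 48 genes, all among the 101, and one from 0.67 to 1.5 gave 158. Of the 101 genes, 0 met the rule on median-ratio scaled values, 0 with equal totals and 33 after quantile normalization. Both counts of 0 were nearly fixed in advance by the factors of the groups. Without 1 library the rule chose 98 to 106 genes, with 88 to 98 of the 101 among them. The rule on quantile-normalized values, and spread after that normalization, were added after seeing the data. The labels do not say that replicate numbers mark shared batches, so the main fit had no block. The deviations of libraries with the same number correlated at 0.0485, 0.0152, 0.126 and 0.112, which does not settle whether the numbers pair them. With the replicate block 10828 genes were called higher and 4789 lower. Libraries 3 and 4 of both groups correlated best with their own number, which did not hold in both directions for 1 and 2. The gene lists had no members and were not examined.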
